A study of Homo sapiens with 42 samples.

Results

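DNA pulled down with an antibody to topoisomerase 2B (TOP2B) was compared with the input DNA of the same mitoxantrone-treated cells, over centromeric and satellite regions. The cells were KG1, an established human acute myelogenous leukaemia line. They had been kept for 1 h in 20 µM mitoxantrone. All 3 TOP2B libraries and all 3 input libraries labelled with that treatment were used, which is 6 of the 42 libraries of the study, and each pulldown was set against the input of the same replica. All 2523 named regions were members. The other libraries of the study covered untreated cells, TOP2A pulldowns and an etoposide series. Of these, the libraries of the same 3 replicas labelled as without drug and the mitoxantrone TOP2A libraries served as comparators. The question was where TOP2B held on DNA by mitoxantrone stood above input.

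Topoisomerase 2 passes one DNA duplex through a transient break in another, and during the cut it is joined covalently to the 5′ ends. TOP2 poisons such as mitoxantrone and etoposide keep the enzyme in that covalent state, so DNA fragments attached to protein can be recovered without a chemical crosslinker. TOP2B is made throughout the cell cycle and also in cells that no longer divide, and is known for acting at transcribed genes and chromatin loop anchors. TOP2A works mostly in dividing cells and has a long-known role at centromeres in separating sister chromatids. Human centromeres are built on alpha satellite: higher-order arrays, the active or "live" ones of which carry the kinetochore, are flanked by divergent and monomeric alpha satellite, by the human satellites HSat1 to HSat3, and by beta and gamma satellite. Transition regions join these repeats to the chromosome arms.

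The 6 libraries held 151034 to 2108202 reads in named regions, out of 3587678 to 40347995 reads in all. Reads set aside for low mapping quality made up 21.2% to 63.8% of a library. Each input had more region reads than its pulldown, by 2.77, 1.52 and 2.16 times in replicas 1, 2 and 3. Of the region reads, 86.2% to 95.2% lay in transition regions, so every satellite class rested on a small share of a library. Each replica was a sequencing order of its own, and replica 1 was read at 100 bp and the others at 50 bp; order, read length and replica cannot be told apart. At least 1 read was found in 2288 regions and a read in all 6 libraries in 1231. The labels do not say whether the replicas were separate cultures, so the p-values measure a spread between samples that may be technical.

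No region passed the test of TOP2B against input. Of 1416 regions with enough reads to test, 0 (0%) had an adjusted p under 0.05 by edgeR's quasi-likelihood test with Benjamini-Hochberg adjustment, and the lowest adjusted p was 0.999. At an unadjusted p under 0.05 there were 38 regions (2.68%), of which 26 were higher in the pulldown (1.84%) and 12 lower (0.847%). DESeq2 and limma voom also called 0, with 37 (2.61%) and 51 (3.6%) regions at an unadjusted p under 0.05. The fitted change was higher for 669 regions (47.2%) and lower for 747 (52.8%), with a median log2 change of -0.02. In all 3 pairs, 127 regions were higher (8.97%) and 160 were lower (11.3%). Of the 26 higher ones, 10 were HSat1A, of 16 HSat1A regions tested. Another 6 were repeats annotated rnd-6_family-4384, of 15 tested, on means of 4 to 12.8 reads a library. Of the 12 lower ones, 5 were repeats annotated rnd-1_family-0, of 8 tested. A region could pass the filter on low counts through 1 kind of library alone, so these counts are no support for a direction. The remaining regions were spread over other classes and families.

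HSat1A, an AT-rich human satellite, was the class that stood furthest above input. Its regions in these data lie on chromosomes 3, 4 and 8 and on the acrocentric chromosomes 13, 14, 15, 21 and 22. The pulldowns held 479, 184 and 63 HSat1A reads in replicas 1, 2 and 3, and the inputs 538, 43 and 54. As a share of region reads this was 0.139%, 0.122% and 0.00647% in the pulldowns against 0.0563%, 0.0187% and 0.00256% in the inputs. Every pulldown was above its own input, but the replica 3 pulldown lay below all inputs except its own, so the groups overlapped and only the pairs separated. The log2 ratio of shares was 1.30, 2.69 and 1.33, with 95% counting intervals (exact, from the binomial split of the reads) of 1.12 to 1.48, 2.22 to 3.22 and 0.79 to 1.89. The mean was 1.77 ± 0.79 (SD, n = 3), a 3.42-fold higher share. The exact two-sided sign permutation over 3 pairs cannot go below p = 0.25, which is the value HSat1A had, with an adjusted p of 1 over the 12 classes.

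In read numbers, before division by depth, the pulldown and the input were closer. In replica 1 the pulldown had 0.890 times as many HSat1A reads as the input, and in replica 3 it had 1.17 times as many, while the inputs held 2.77 and 2.16 times the region reads. In replica 2 the pulldown had 4.28 times as many. Across the 18 libraries of the mitoxantrone series, HSat1A reads did not follow depth: the shallowest library, an untreated TOP2A pulldown with 43988 region reads, had 224 of them, and the replica 3 mitoxantrone input, with 2108202 region reads, had 54. What set these read numbers was not tested.

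**Figure D1:**
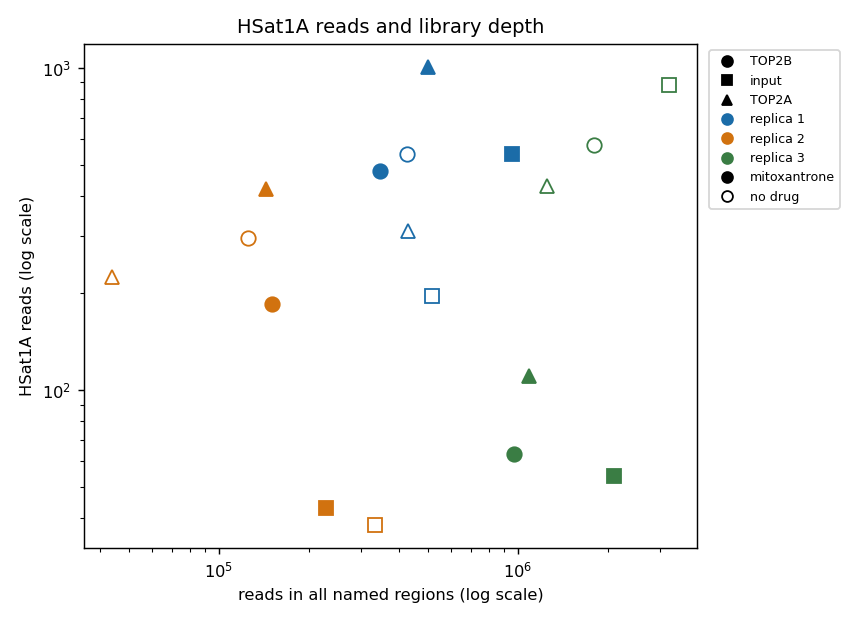
HSat1A reads against reads in all named regions, both on log axes, for the 18 libraries of the mitoxantrone series; colour marks the replica, shape the kind of library, and filled symbols mitoxantrone. The mitoxantrone libraries of replica 3, with 54 to 110 HSat1A reads, sit below those of replica 1, with 479 to 1005, although they were deeper.

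The single HSat1A regions were alike in direction. Of the 24, 16 passed the filter on low counts. All 16 had a fitted change above 0 with a median log2 change of 1.58, beside 47.2% of all regions tested. Of the 16, 13 were higher in all 3 pairs, beside 8.97% of all regions tested. Since passing the filter could come from the pulldowns alone, those counts describe the regions and are no support for the direction. The 8 regions outside the filter had at most 5 reads in any 1 of the 6 libraries. The region with the most reads, hsat1A_13_1 on chromosome 13, had 101, 41 and 15 reads in the pulldowns and 129, 7 and 12 in the inputs. Its fitted log2 change was 1.59 (SE 0.72), with an unadjusted p of 0.0469 and an edgeR adjusted p of 0.999.

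Among the others, hsat1A_21_1 had the lowest unadjusted p of all regions, 0.00521, with an edgeR adjusted p of 0.999. It had 33, 18 and 6 reads in the pulldowns and 41, 3 and 4 in the inputs, and a fitted log2 change of 1.70 (SE 0.53). The region hsat1A_21_4 was the most even, with log2 values of 1.58, 1.44 and 1.47 in the replicas, but on 2 to 32 reads a library.

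**Figure D2:**
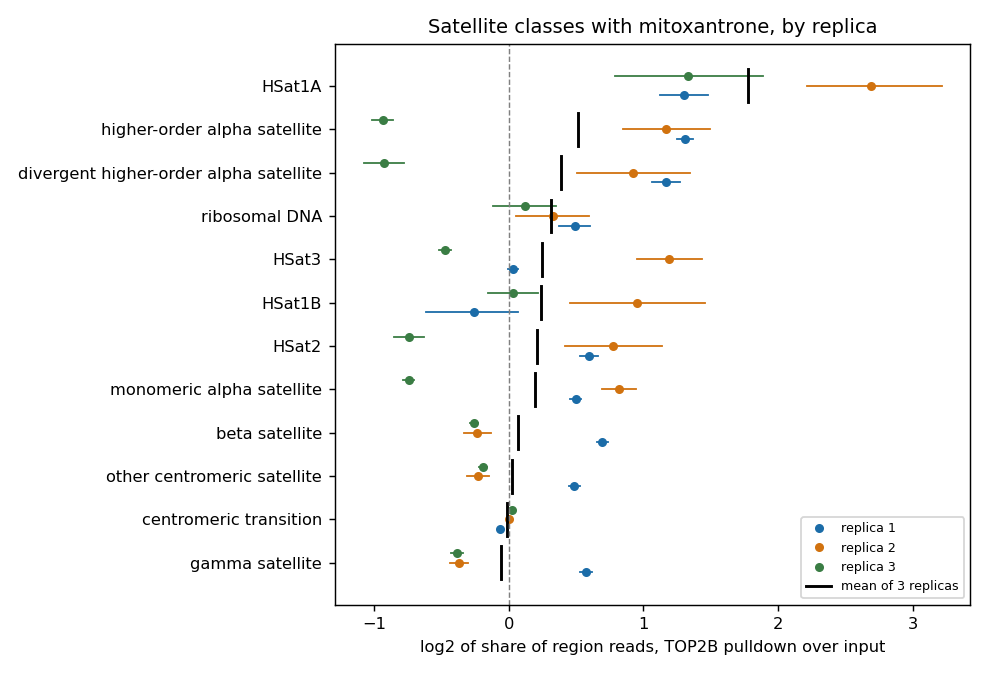
Log2 ratio of a class's share of region reads, TOP2B pulldown over input, with mitoxantrone, for 12 classes; points are replicas with 95% counting intervals and black bars are means. HSat1A lies above 0 in all 3 replicas (1.30 to 2.69), ribosomal DNA by less (0.12 to 0.49), and the alpha satellite classes are above 0 in replicas 1 and 2 and below in replica 3.

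The HSat1A ratio was higher with the drug than without it in 1 of 3 replicas. In the untreated libraries the log2 ratio of the HSat1A share, TOP2B over input, was 1.73, 4.35 and 0.22, with a mean of 2.10 ± 2.09 (SD, n = 3). The difference, mitoxantrone minus no drug, was -0.43, -1.66 and 1.11, a mean of -0.33 ± 1.39 (SD, n = 3), with an exact sign permutation p of 0.75. Region by region, all 16 tested HSat1A regions had a fitted change above 0 without drug (44.8% of all regions did), and 9 of 16 had a fitted difference between mitoxantrone and no drug above 0 (49.8% of all). In replica 3 the HSat1A share of the input itself was 0.0275% without drug and 0.00256% with it. The TOP2A pulldowns of the mitoxantrone-treated cells held still more HSat1A: their log2 ratio over the same inputs was 1.83, 3.94 and 1.97, and all 16 regions had a fitted change above 0 (47.8% of all did). Set against TOP2A directly, TOP2B was lower in 3 of 3 replicas, by log2 values of -0.53, -1.25 and -0.64. The mean was -0.81 ± 0.39 (SD, n = 3), with an exact sign permutation p of 0.25, the smallest possible. Of the 16 regions, 15 had a fitted difference below 0 (48.8% of all). Passing the filter could come from the pulldowns alone, TOP2A among them, so the region counts of this paragraph are no support for a direction.

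The ribosomal DNA arrays, which encode the large ribosomal RNAs on the short arms of the acrocentric chromosomes, were the other class above input in every replica. The 5 arrays together had 947, 207 and 228 reads in the pulldowns and 1869, 251 and 455 in the inputs. Their log2 share ratio was 0.49, 0.33 and 0.12, a mean of 0.31 ± 0.19 (SD, n = 3) or 1.24-fold, with an exact p of 0.25. The counting interval of replica 3, -0.12 to 0.35, includes 0.

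The arrays did not all do the same. On chromosome 13, rDNA_13_1 had 238, 43 and 39 reads in the pulldowns and 373, 43 and 63 in the inputs, which gave log2 values of 0.77, 0.60 and 0.48 at these depths. Its fitted log2 change was 0.63 (SE 0.23), with an unadjusted p of 0.0162 and an edgeR adjusted p of 0.999. On chromosome 15, rDNA_15_1 had log2 values of 0.61, 0.48 and 0.60. The array with the most reads, rDNA_21_1, had 0.36, 0.24 and 0.00, and rDNA_22_1 had -0.59, 0.41 and -0.07. Because the arrays are nearly identical in sequence, the assignment of their reads to one chromosome or another is uncertain. Without drug the class was at -0.09, 0.70 and -0.02, and the mitoxantrone minus no drug difference was 0.11 ± 0.48 (SD, n = 3; exact p 0.75).

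Alpha satellite, the repeat of the centromere proper, differed between replicas more than it differed from input. Higher-order arrays made up 1.20%, 0.132% and 0.181% of the region reads in the pulldowns and 0.483%, 0.0588% and 0.347% in the inputs. The log2 ratio was 1.31, 1.17 and -0.94, so the pulldown was above its input in replicas 1 and 2 and below it in replica 3, each by more than its counting interval. The mean of 0.51 was smaller than the SD of 1.26 (n = 3; exact p 0.50). Divergent higher-order arrays gave 1.17, 0.92 and -0.93, and monomeric alpha satellite gave 0.50, 0.82 and -0.74.

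The live arrays showed the same split one by one. On chromosome 18, hor_18_5, the array with the highest mean level, had 459, 7 and 58 reads in the pulldowns and 421, 7 and 300 in the inputs, or log2 values of 1.54, 0.57 and -1.19. On chromosome 20, hor_20_2 had log2 values of 1.62, 2.11 and -1.36, and on chromosome 12, hor_12_2 had 0.93, 1.73 and -1.72. The live array of the X chromosome, hor_X_1, varied less, at 0.51, 0.89 and -0.77. Of 41 live regions, 30 were tested. Of these, 21 had a fitted change above 0 (47.2% of all regions tested did), and 1 was higher in all 3 pairs (8.97% of all). Without replica 1, 3 of 32 were above 0, and without replica 3, 31 of 31 were, so the direction of the live arrays rested on the replicas taken.

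HSat2 and HSat3, the large satellites of chromosomes 1, 9, 16 and Y among others, were above input in replica 2 and below it in replica 3. HSat2 had log2 ratios of 0.59, 0.78 and -0.74 (mean 0.21 ± 0.83, SD, n = 3), and HSat3 had 0.03, 1.19 and -0.47 (mean 0.25 ± 0.85, SD, n = 3); its replica 1 value was -0.07 as a share of region plus no-feature reads. Within HSat3 the subfamilies differed. Subfamily B3 had 0.43, 1.99 and -0.996, subfamily A6 was above input in 3 of 3 replicas at 0.18, 0.64 and 0.39, and subfamily A4 had -0.51, 0.53 and -0.46. Although the A4 share was above input in replica 2, all 43 tested A4 regions had a fitted change below 0. Their median was -0.43, and 52.8% of all regions tested were below 0. Of the 43, 12 were lower in all 3 pairs (27.9%, beside 11.3% of all). Among them, hsat3_14_21 had 0 reads against 2 in replica 2, and hsat3_22_20 had 0 against 1. Passing the filter could come from the inputs alone, so the A4 counts describe the regions and are no support for the direction. Without replica 1, 31 of 42 were below 0 with a median of -0.26. The A4 region hsat3_Y_3 had 75, 3 and 132 reads in the pulldowns and 354, 5 and 454 in the inputs, and a fitted log2 change of -0.67 (SE 0.31; unadjusted p 0.0476; edgeR adjusted p 0.999). HSat1B, which lies mostly on the Y chromosome, had -0.26, 0.95 and 0.03.

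**Figure D3:**
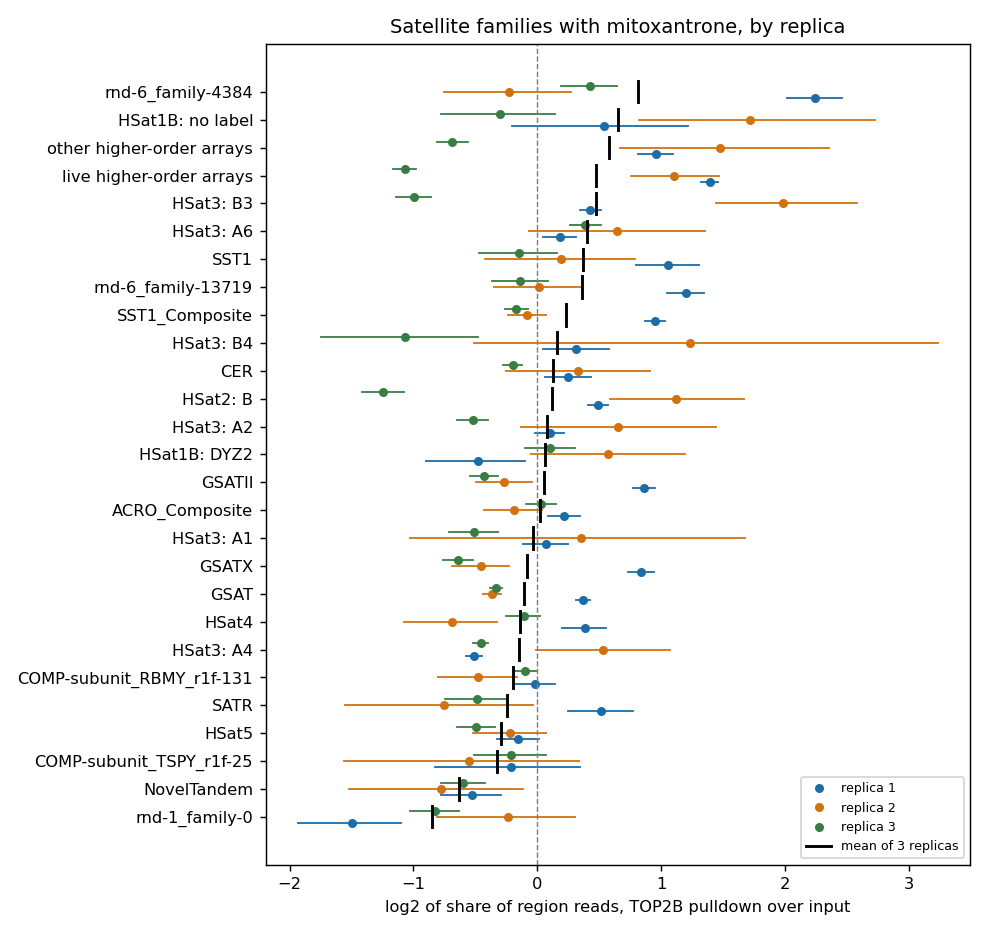
Log2 ratio of a family's share of region reads, TOP2B pulldown over input, with mitoxantrone, for families of at least 5 regions; points are replicas with 95% counting intervals and black bars are means. At the bottom, HSat5, NovelTandem and rnd-1_family-0 lie below 0 in all 3 replicas, and rnd-6_family-4384, at the top, owes its place to replica 1 (2.24, against -0.23 and 0.42).

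Beta satellite with LSAU, gamma satellite and SST1_Composite stood above input in replica 1 and below it in the others. Beta satellite regions that carry LSAU, a repeat often interspersed with beta satellite on acrocentric chromosomes, had log2 ratios of 0.87, -0.27 and -0.37. Gamma satellite, a GC-rich pericentromeric repeat, had 0.57, -0.37 and -0.38, and SST1_Composite had 0.95, -0.08 and -0.17. Of the 50 tested beta satellite regions with LSAU, 46 had a fitted change above 0, beside 47.2% of all regions tested. Without replica 1 only 10 of 40 did. The repeat rnd-6_family-4384 had log2 ratios of 2.24, -0.23 and 0.42. Of its 120 regions 15 were tested, and all 15 were above 0 with a median of 1.26, beside 47.2% of all regions tested. Without replica 1, 10 of 13 were above 0, with a median of 0.23. Passing the filter could come from the pulldowns alone, so those counts describe the regions and are no support for the direction.

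A few repeats lay below input in every replica, judged by the sign of the ratio alone and not by its counting interval. NovelTandem, a label for 8 tandem repeat regions, had log2 ratios of -0.53, -0.78 and -0.60, a mean of -0.63 ± 0.13 (SD, n = 3), and made up 0.0521%, 0.0166% and 0.0347% of region reads in the pulldowns against 0.0753%, 0.0288% and 0.0526% in the inputs. The repeat rnd-1_family-0 had -1.49, -0.23 and -0.83 (mean -0.85 ± 0.63, SD, n = 3), on 56, 44 and 276 reads in the pulldowns and 440, 79 and 1060 in the inputs. HSat5 had -0.15, -0.22 and -0.49 (mean -0.29 ± 0.18, SD, n = 3). Beta satellite without LSAU had -0.21, -0.10 and -0.13 (mean -0.15 ± 0.06, SD, n = 3). Each of these 4 had an exact p of 0.25, the smallest that 3 pairs allow. Of the 43 families with enough reads, 8 were lower in all 3 replicas and 1, HSat3 A6, was higher, and all 43 had an adjusted p of 1. As a share of region plus no-feature reads 9 were lower in all 3, and as a share of all reads 7 were. Of all single regions tested, 11.3% were lower and 8.97% higher in all 3 pairs. The 4 repeats above were named for lying below input in all 3 replicas, so that agreement is no support for the direction.

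NovelTandem and rnd-1_family-0 were also below input in 3 of 3 replicas without drug and with the other enzyme, while HSat5 and beta satellite without LSAU were below input in 2 of 3 replicas without drug. NovelTandem had a mean log2 ratio of -0.54 ± 0.09 (SD, n = 3) for TOP2B without drug, and -0.71 for TOP2A with mitoxantrone. For rnd-1_family-0 the mean without drug was -0.41 ± 0.19 (SD, n = 3), and TOP2A with mitoxantrone was below input in 3 of 3 replicas, at -1.54, -0.49 and -0.97. Those comparisons share their inputs in part with the TOP2B comparison, since the TOP2A ratios were taken over the same inputs. The difference of TOP2B over input, mitoxantrone minus no drug, was -0.09 ± 0.20 (SD, n = 3) for NovelTandem and -0.44 ± 0.80 for rnd-1_family-0, neither beyond its spread.

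Among single regions with at least 50 reads on average, the lowest unadjusted p on the lower side belonged to ct_18_4, a transition region of chromosome 18. It had 46, 39 and 370 reads in the pulldowns and 303, 88 and 842 in the inputs, or log2 values of -1.30, -0.56 and -0.01, so the difference lay in replicas 1 and 2. The fitted log2 change was -0.64 (SE 0.25; unadjusted p 0.0222; edgeR adjusted p 0.999). Another on chromosome 9, ct_9_38, had log2 values of -2.16, -0.76 and -0.05. The NovelTandem regions in this group were censat_7_3, at -0.11, -1.24 and -1.12, and censat_19_3, at -1.45, -1.40 and -0.33. Regions were named at either end only if all 3 pairs had the same direction, so that agreement is no support for a direction.

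On the higher side, 5 of the 10 named regions were transition regions, of chromosomes 7, 9, 15, 19 and 20. Of all 631 tested regions with at least 50 reads on average, 385 were transition regions. For ct_7_47 on chromosome 7 the log2 values were 0.09, 0.32 and 0.30, on 352, 208 and 962 reads in the pulldowns and 884, 253 and 1759 in the inputs. For ct_20_25 on chromosome 20 they were 0.61, 0.36 and 0.11.

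Transition regions, which took most reads, were level with input. The class had log2 share ratios of -0.07, 0.00 and 0.02 (mean -0.01 ± 0.05, SD, n = 3). Of 615 tested, 235 had a fitted change above 0 (38.2%, beside 47.2% of all regions tested) and 380 below, with a median of -0.06. In all 3 pairs, 59 were higher (9.59%, beside 8.97% of all) and 77 lower (12.5%, beside 11.3% of all). The region with the most reads, ct_8_1 at the short-arm side of chromosome 8, had 17970, 10865 and 66178 reads in the pulldowns and 55105, 16502 and 132555 in the inputs. Its log2 values were -0.20, 0.00 and 0.17, so even with this many reads the sign differed between replicas. The next one, ct_17_31 at the long-arm side of chromosome 17, had -0.09, -0.02 and 0.10.

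Among regions with at least 50 reads on average, the pattern of TOP2B over input was not shared by all 3 replicas. HSat1A was almost absent from these regions, since its region with the most reads, hsat1A_13_1, had a mean of 50.8. Over 631 regions with a mean of at least 50 reads, the log2 ratios of replicas 1 and 2 had a Pearson correlation of 0.217, those of replicas 1 and 3 had -0.353 and those of replicas 2 and 3 had -0.329. Among the 385 transition regions of these the 3 correlations were 0.067, 0.019 and -0.036, and among the 246 others 0.216, -0.309 and -0.321. These are correlations over regions of the same libraries, which are not independent. The median SD of a region between replicas was 0.39 on the log2 scale, beside a median of 0.30 expected from counting error. For higher-order alpha satellite the SD was 1.47 against 0.56, for monomeric alpha satellite 0.80 against 0.38, and for transition regions 0.27 against 0.23. For HSat3 (54 regions), at 0.69 against 0.80, and for ribosomal DNA (3 arrays), at 0.15 against 0.26, the median SD was below the median counting error. An SD of 3 values falls below its expectation more often than above it, so the medians are not like for like. For HSat3, 44.4% of the regions had an SD above their counting error.

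**Figure D4:**
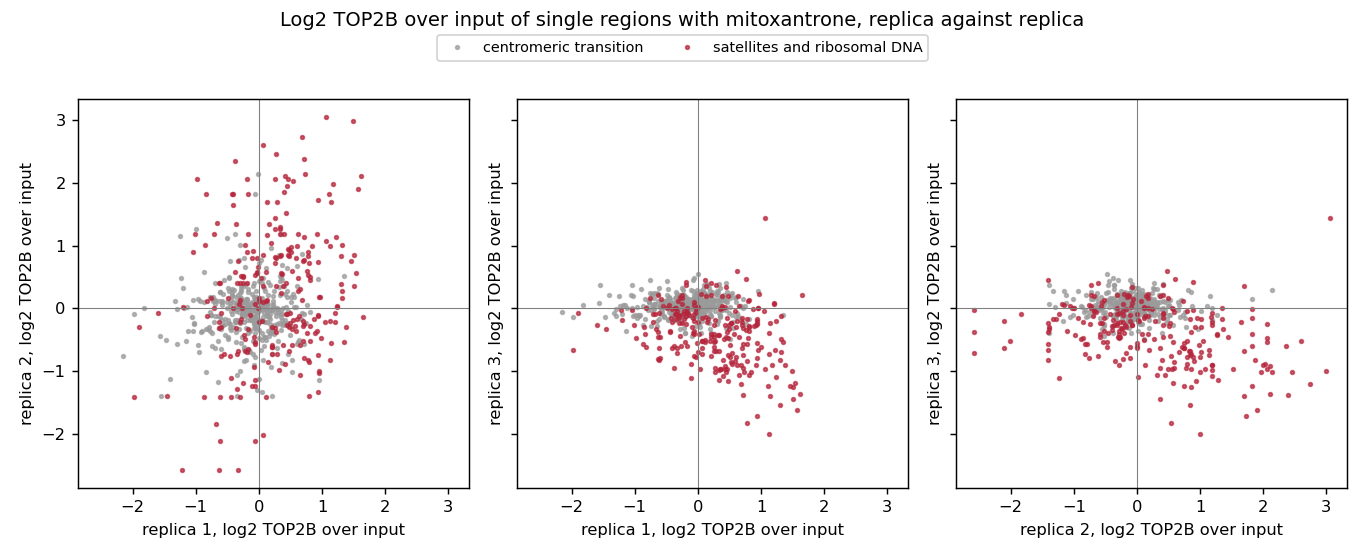
Log2 TOP2B over input of 631 regions with at least 50 reads on average, with mitoxantrone, for each pair of replicas; grey points are transition regions and red points satellites and ribosomal DNA. Transition regions gather around 0. Over the 246 red points, replica 3 correlated negatively with replicas 1 and 2 (Pearson r of -0.309 and -0.321).

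Tests of the drug and of the enzyme gave no called region either. For TOP2B over input, mitoxantrone minus no drug, 0 of 1416 regions (0%) passed in edgeR, and 4 had an unadjusted p under 0.05 (0.282%); DESeq2 and limma voom called 0, with 4 (0.282%) and 10 (0.706%). For TOP2B over TOP2A with mitoxantrone, 0 of 1416 (0%) passed in edgeR, and 9 had an unadjusted p under 0.05 (0.636%); DESeq2 and limma voom called 0, with 11 (0.777%) and 15 (1.06%). By class, gamma satellite was higher for TOP2B than for TOP2A in 3 of 3 replicas, by log2 values of 0.23, 0.30 and 0.10, and HSat2 and monomeric alpha satellite were lower in 3 of 3, with means of -0.39 ± 0.27 and -0.44 ± 0.44 (SD, n = 3; exact p 0.25 for each). HSat5 was also higher in 3 of 3, by 0.38, 0.40 and 0.16.

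**Figure D5:**
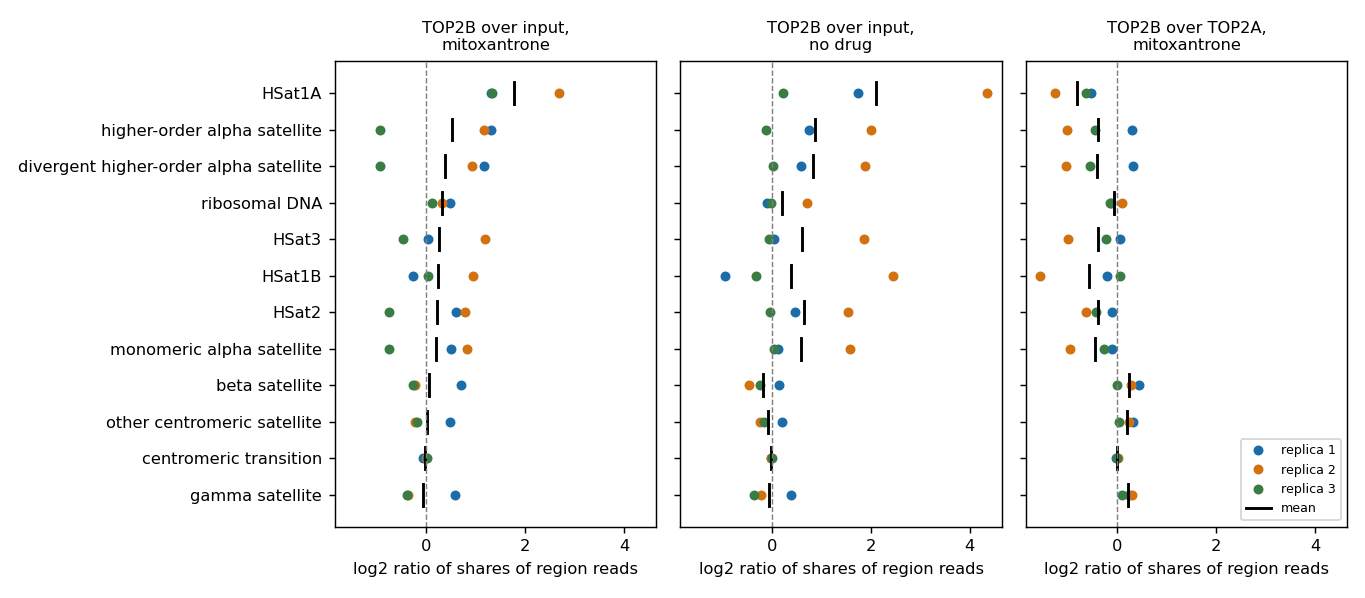
Log2 ratios of class shares of region reads in each replica (points) with their means (bars): TOP2B over input with mitoxantrone, TOP2B over input without drug, and TOP2B over TOP2A with mitoxantrone. HSat1A is above 0 in all 3 replicas of the first and second panels and below 0 in the third, and replica 2 has the highest value of the satellite classes HSat1 to HSat3 in the second panel.

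The etoposide series, with 100 µM of drug for 1 h and 4 replicas, gave TOP2B over input values that can be set beside these without a test, since drug, dose and replicas differ. HSat1A had log2 ratios of 0.26, -0.995, 2.02 and -1.02 there, a mean of 0.06 ± 1.43 (SD, n = 4), against 1.30 to 2.69 with mitoxantrone. Higher-order alpha satellite had -1.73, -0.18, 1.29 and -0.55, ribosomal DNA had -0.28, 0.18, -1.85 and 0.32, and NovelTandem had -1.60, -0.43, -0.08 and -0.49. NovelTandem was below its input in all 4 etoposide replicas, though by only -0.08 in replica 3. The mitoxantrone directions of these 4 groups were known beforehand, so only the etoposide side of the comparison was open. The other repeats below input with mitoxantrone were not set beside the etoposide series here.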

How the data were processed

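The values used were the deposited read counts of 2523 named regions and 5 tallies of other reads. Per the submitters' processing notes, the authors used Trimmomatic 0.36, BWA 0.7.17 and HTSeq (version string 2.7.13) with the T2T-CHM13 genome; these raw counts carry no normalisation, and the mapping quality minimum is not given in the sources used here. Per the labels' protocols, eluted DNA was treated with TDP2, which frees blocked 5′ ends, and cut with BsmAI. Region coordinates and sequences were not used here.

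The main test was edgeR's (version 4.0.16, under R 4.3.3; quasi-likelihood, TMM factors, filterByExpr with a minimum count of 10, Benjamini-Hochberg over all regions tested, threshold 0.05, two-sided). The fit held the 18 mitoxantrone-series libraries, with 6 blocks of replica and treatment and 4 pulldown terms. DESeq2 1.42.0 and limma 3.58.1 were run beside it. Single-region log2 values used TMM-scaled sizes. For class shares, 0.5 reads were added and divided by all region reads; signs were permuted exactly over 3 pairs. Intervals are exact binomial at 95% and cover counting error only, as PCR copies were not marked. Scripts were tested on simulated data.

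Replica numbers pair the libraries because the labels give pulldown and input the same replica. Deviations from the group means over 631 regions correlated at 0.830, 0.813 and 0.721 for the same number, and at -0.622 to -0.114 otherwise. Deviations within a group cancel out, so negative values are built in where the same-number values are positive. Each replica was also its own sequencing order, so these correlations cannot tell shared cells from a shared order. Counts differed between all libraries of either group. Named regions were up to 10 at each end by edgeR among those of at least 50 mean reads with 1 direction in all 3 pairs (filled by lowest unadjusted p, since none passed), the 5 of highest CPM and the highest of each class; other HSat1A, ribosomal and higher-order regions were named as members of their class, after their values were seen. The members, lists and tests were chosen with earlier results of these data known. Alternatives were other normalisations, filters, tools, no block, the 6 libraries alone and leaving out each replica; a share of all reads was added after the data were seen.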

Additional observations from a re-analysis of the deposited data

How the results depend on the processing

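The count of regions called was 0 in all 23 other fits that kept every replica (7 alternatives for each of the 3 comparisons, and 2 with 6 libraries for TOP2B over input only), and ran from 0 to 0 without replica 1, 2 or 3. Without the replica block 0 regions were called, and 0 had an unadjusted p under 0.05, in 18 libraries and in 6; the 6 with the block gave 28 of 1202. Without replica 2, 102 of 1695 regions had an unadjusted p under 0.05 and the lowest adjusted p was 0.753; without replica 1 it was 10 of 1506. Of the 12 class means of TOP2B over input, 3 kept their sign under every alternative. These were HSat1A, from 1.32 without replica 2 to 2.01 without replica 1, higher-order alpha satellite and ribosomal DNA. The single higher-order regions did not keep theirs: without replica 1, 16 of 76 tested had a fitted change above 0, with a median of -0.57. As a class mean without replica 2, HSat1B was -0.11, HSat2 -0.07, HSat3 -0.22, monomeric alpha satellite -0.12 and gamma satellite 0.09. Without replica 1, beta satellite was -0.25, other centromeric satellite -0.21, transition regions 0.01 and divergent higher-order alpha satellite -0.0013. Without replica 3, gamma satellite was 0.10. HSat3 was -0.03 from the mean shares without the replica block, and as medians over regions beta satellite was -0.07, gamma satellite 0.08 and other centromeric satellite -0.02. Other centromeric satellite was also -0.01 as a share of region plus no-feature reads, and transition regions 0.03 as a share of all reads. Some fitted log2 changes of named regions changed sign. Without the block, ct_8_1 was 0.013 in 18 libraries and 0.014 in 6, and ct_18_10 was 0.00216 in 6. For ct_17_31 it was 0.00291 with RLE factors, 0.00292 with DESeq2 and 0.00392 with voom. For mon_8_1 it was -8.71e-05 with library sizes from region plus no-feature reads and -0.012 with voom. Leaving out 1 replica gave -0.17 to 0.093 for ct_8_1, -0.12 to 0.043 for ct_17_31, -0.16 to 0.00606 for ct_16_69, -0.24 to 0.10 for ct_18_10, -0.25 to 0.97 for hsat3_9_3, -0.33 to 0.22 for bsat_22_6, -0.057 to 0.79 for dhor_6_1, -0.66 to 1.21 for hor_18_5 and -0.29 to 0.46 for mon_8_1; the lowest or highest value came without replica 1 in all of these except hsat3_9_3 and mon_8_1. The cause was not tested. HSat1A rested on 43 to 538 reads in each of these 6 libraries.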
